A study of Bos taurus with 3 samples.

Results

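The 40 mitosis genes described here encode proteins that a cell uses between the end of DNA replication and the separation of its daughter cells, and they were taken by gene symbol from the count tables of 3 newborn Holstein calves. Each of the 40 symbols matched 1 of the 27270 rows of these tables, and each gene had a unique molecular identifier (UMI, the count of 1 captured RNA molecule) in kept cells of every calf. The tissue was the ventral sac of the rumen, the large fermentation chamber of the cattle forestomach, taken a day after birth with no treatment named, with 1 droplet library per animal and no other group. The outer muscle was stripped off and the rest was digested with EDTA, trypsin and a mix of enzymes, so the cells are those of the inner wall that came through dissociation. Libraries of adult cattle were not analysed here.

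Chromosomes are copied in S phase, condense at the entry into mitosis, attach to the spindle at their kinetochores, and are pulled apart once the anaphase-promoting complex marks securin and cyclin B for degradation. The RNA of most genes that serve these steps rises late in S phase or in G2 and falls after division, so their RNA is used as a sign of dividing cells. The rumen is lined by a stratified squamous epithelium that renews itself by division of cells in and near its basal layer, while its upper layers differentiate and are shed. From general knowledge, though with earlier results of these data in view, the 40 genes were divided into 21 early genes, which act or accumulate from S phase to the first steps of mitosis, and 19 late genes, which peak around metaphase and exit.

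The libraries held 82263092, 89803289 and 106145091 UMIs in calves 1, 2 and 3. Of 31228 barcodes, 24042 passed the limits of 500 to 4000 genes and the other filters, which is 4695, 9746 and 9601 cells with medians of 10172, 6472 and 7408 UMIs. Between 21 and 37 barcodes were shared by 2 libraries as deposited, and 11 to 25 among kept cells. Marker genes put 21157 cells in the epithelial class, 1314 in the endothelial, 771 in the fibroblast and 799 in the immune class, and 1 cell stayed without a class. The smaller classes of calf 1 were thin, with 75 endothelial, 22 fibroblast and 10 immune cells. Summed over 6 epithelial markers, the level was 168 to 207 UMIs per 10000 in epithelial cells, 5.60 to 10.3 in endothelial cells, 8.30 to 31.6 in immune cells and 11.5 to 97.7 in fibroblasts, the highest being the 22 fibroblasts of calf 1. The part of such epithelial RNA in the values of the other classes was not tested.

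A level is given throughout as UMIs of a gene, or of several genes together, per 10000 UMIs, over all cells of a class in 1 calf added together. UMIs come from 3′ ends, so levels of different genes count molecules and are not divided by gene length. The 40 genes gave 213941 UMIs in kept cells, of which 95.6% were in epithelial cells, the class that made up 88.0% of the cells. Epithelial cells were also the deepest, with a median of 7663 UMIs against 2080 to 4816 in the other classes. Their share of UMIs would thus exceed their share of cells even at equal levels. In the epithelial class HMGB2, a chromatin protein that bends DNA, gave 12.8% of these UMIs, CENPF, a kinetochore protein, 9.40%, CKS2, a small partner of the mitotic kinase, 6.79%, TOP2A, the topoisomerase that untangles sister chromatids, 6.68%, and SMC4, a core condensin subunit, 4.13%. These 5 genes held 39.8% of the sum, so the summed level leans on them.

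In epithelial cells the summed level was 19.9 in calf 1, 5.33 in calf 2 and 9.92 in calf 3, or 11.7 ± 7.46 (SD, n = 3 calves). The difference between calves ran through nearly the whole set, since 38 of the 40 genes were ordered calf 1, calf 3, calf 2 and 39 were highest in calf 1. Endothelial cells had 5.09, 4.47 and 8.70, fibroblasts 6.86, 5.90 and 9.10, and immune cells 4.79, 12.7 and 8.99 in calves 1, 2 and 3. The epithelial level was thus above the endothelial level in all 3 calves, by 3.91-fold, 1.19-fold and 1.14-fold, but above the fibroblast level only in calves 1 and 3 (2.90-fold and 1.09-fold, against 0.905-fold in calf 2) and above the immune level only in calves 1 and 3 (4.16-fold and 1.10-fold, against 0.419-fold in calf 2). The immune level of calf 2 leaned on few cells. There 3 of its 80 immune cells, chosen as those with the most, held 376 of the 560 mitotic UMIs. Without them the immune level was 4.46. No epithelial cells were left out in turn, so that value is not comparable with the epithelial level of that calf. In these sums the late genes separated epithelial from endothelial cells more than the early genes did, at 7.68-fold, 2.00-fold and 1.26-fold against 2.81-fold, 0.897-fold and 1.07-fold. Gene by gene, in the fit given below, they did not. The median log2 difference was 1.53 for the early and 1.52 for the late genes, with 16 of 21 and 16 of 19 called higher. Calf 1 also had the deepest cells. Sequencing depth was therefore made equal for a count of cells.

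**Figure D1:**
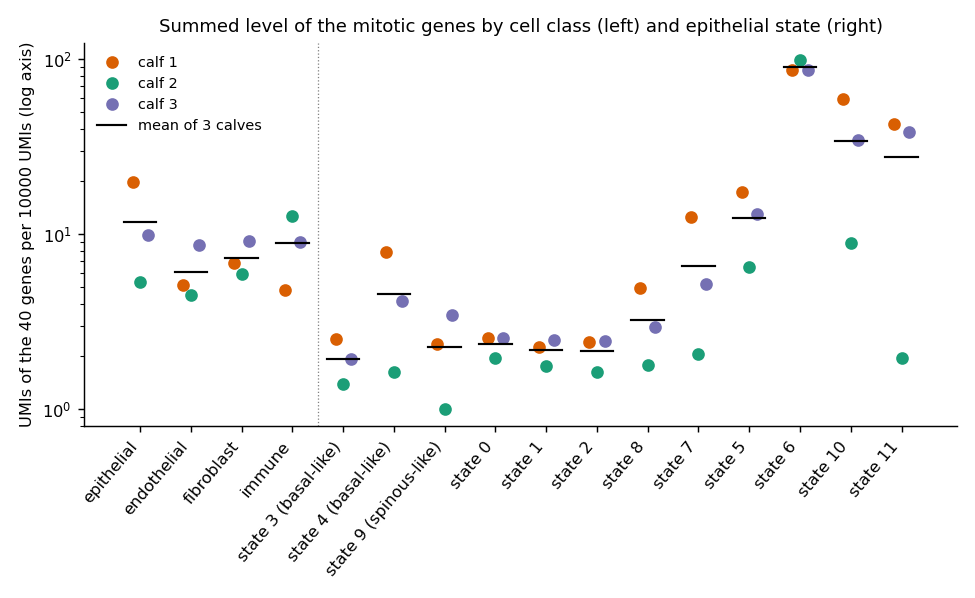
Summed level of the 40 mitosis genes, in UMIs per 10000 UMIs on a log axis, in 4 cell classes and in the epithelial states of at least 50 cells. Points are calves and bars are means of 3 calves; state 6 stands at 86.4 to 98.7 in every calf, while the 4 classes overlap.

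After each cell of at least 2000 UMIs had been thinned to that number, 25.5% of epithelial cells of calf 1 carried 3 or more UMIs of the 40 genes (95% Clopper-Pearson interval 24.2 to 26.8), against 3.77% in calf 2 (3.37 to 4.19) and 10.0% in calf 3 (9.38 to 10.7). The intervals of the calves do not overlap, and the order is that of the levels. The mean was 13.1% ± 11.2 (SD, n = 3 calves), and 38.4% ± 20.2 without thinning, with 510 of the 21157 cells too shallow for the thinned value. The same share was 5.98% ± 1.66 for the endothelial, 11.3% ± 12.0 for the fibroblast and 10.1% ± 10.1 for the immune class, whose median depths of 3952, 2080 and 4816 UMIs were below the 7663 of epithelial cells. Too shallow to enter were 150 of 1314 endothelial, 362 of 771 fibroblast and 97 of 799 immune cells, so the fibroblast share leaves out 47.0% of that class. In calf 1 the fibroblast share was 4 of 16 cells and the immune share 0 of 7, which allows up to 42.9%, so the smaller classes of that calf set no usable limit. Intervals and such limits cover counting error only.

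Within the epithelium most of the signal sat in 1 state. The epithelial cells fell into 14 states, 12 of them with at least 50 cells. State 6, with 550, 188 and 335 cells in calves 1, 2 and 3, reached summed levels of 86.4, 98.7 and 86.6, or 90.5 ± 7.05 (SD, n = 3 calves). Its 10 leading genes were TOP2A, CENPF, UBE2C, MKI67, CDC20, TPX2, PTTG1, ASPM, CDCA3 and BIRC5. The 40 genes and the other listed cell-cycle genes were left out of the genes used for clustering, but genes that vary with them were not, so the level of state 6 against other states is a description and carries no test. State 6 was 12.0%, 2.14% and 4.30% of the epithelial cells of calves 1, 2 and 3, and it held 70.6%, 63.3% and 60.6% of their mitotic UMIs. By role, its sums were 23.1 ± 0.783 for the 5 genes of chromosome structure, 20.7 ± 2.71 for the 7 of kinetochore and centromere, 14.7 ± 0.515 for the 11 of spindle assembly, 11.7 ± 2.66 for the 4 of degradation and exit, 7.92 ± 1.03 for the 4 of the entry kinase and its partners, 6.05 ± 0.559 for the 4 of midzone and cytokinesis, 4.79 ± 0.417 for the 3 of the passenger complex and 1.52 ± 0.251 for the 2 checkpoint kinases (SD, n = 3 calves). Its summed level was thus alike in the 3 calves while its share of cells was not.

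State 5, led by the replication genes UHRF1, RRM2 and MCM3, came next in UMIs with 12.9% of the epithelial sum and levels of 17.5, 6.48 and 13.0. States 10 and 11 were small and also high in calves 1 and 3. State 10, with 201 cells, 25.1% mitochondrial UMIs and POLQ and MKI67 among its leading genes, had 58.8, 8.94 and 34.3, and state 11, with 164 cells and a median of 1640 UMIs, had 42.7, 1.97 and 38.1. Basal-like cells (states 3 and 4, named from keratin and integrin markers) had 5.16, 1.53 and 3.12, spinous-like cells (state 9, led by SPINK5 and KRTDAP) 2.35, 1.00 and 3.45, and states 0, 1 and 2, the largest by cells, between 1.62 and 2.54. State 7, led by mitochondrial genes at 17.8% of its UMIs, had 12.5, 2.06 and 5.20, and state 8 had 4.92, 1.79 and 2.93.

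The thinned share gave the same picture cell by cell. In state 6, 96.4% ± 1.32 (SD, n = 3 calves) of cells held 3 or more mitotic UMIs, with 97.8%, 95.2% and 96.1% in calves 1, 2 and 3, against 36.7% ± 20.2 in state 5, 5.20% ± 4.21 in basal-like and 3.59% ± 2.47 in spinous-like cells. In state 1, whose median depth was 8049 UMIs, the share was 1.44% ± 0.337, which is the lowest share of any state of 50 or more cells and is taken here as the background. Spinous-like cells of calf 2, at 0.978%, were not above that background.

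Single genes differed in how far they were held in state 6. Of the UMIs of CDC20, the activator of the anaphase-promoting complex, 87.1% were there, followed by the mitotic cyclin CCNB2 at 86.2%, CDCA3 at 83.7%, the ubiquitin-conjugating enzyme UBE2C at 83.4% and TOP2A at 82.9%. At the other end stood TMPO, a nuclear envelope protein, with 24.1%, CKS1B, a partner of cyclin-dependent kinases, with 32.8%, HMGB2 with 45.5%, SMC4 with 50.3% and the kinesin KIF20B with 53.3%. The low shares belong to genes of the early list in all 5 cases, and of the 5 high ones only TOP2A is on the early list.

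Mitotic UMIs were also concentrated in few cells when no clusters were used. At 4000 UMIs per cell, 28.2%, 51.7% and 34.6% of the epithelial cells of calves 1, 2 and 3 held no UMI of the 40 genes, which at this depth does not show that they were silent. Cells with 10 or more made up 18.2% (95% interval 17.0 to 19.4), 2.39% (2.06 to 2.75) and 6.01% (5.48 to 6.58), and they held 81.5%, 57.1% and 61.5% of the mitotic UMIs of their calf. In each calf the median such cell carried 16 different genes of the 40, and the richest cell carried 33, 31 and 33, so the UMIs of 1 cell came from many of the genes and not from 1 abundant transcript.

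**Figure D2:**
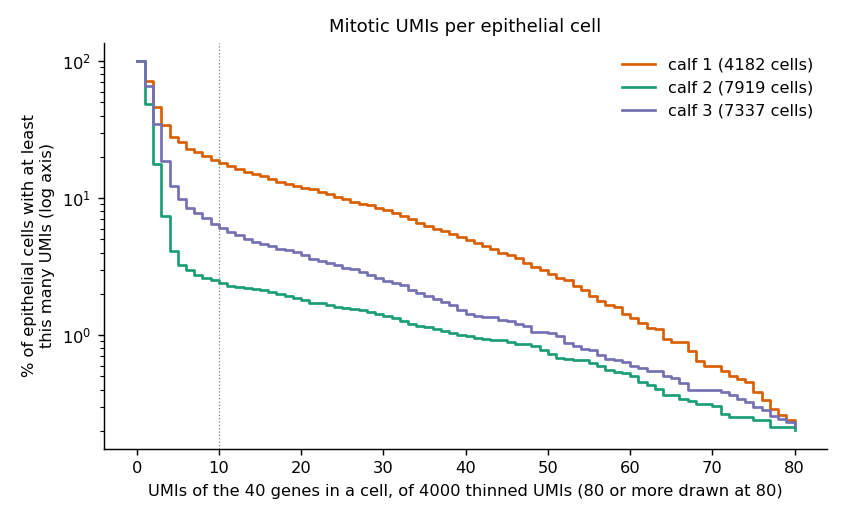
Share of epithelial cells, in % on a log axis, with at least a given number of mitotic UMIs among 4000 thinned UMIs, for each calf. The curve of calf 1 lies above those of calves 3 and 2, and 18.2%, 6.01% and 2.39% of cells reach 10 UMIs (dotted line).

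The classes were compared gene by gene on counts summed per animal, using the quasi-likelihood fit of edgeR blocked by calf and Benjamini-Hochberg adjustment over all genes tested. Against endothelial cells, 32 of the 40 genes were higher in epithelial cells and 1 was lower, where 26.5% and 21.8% of all 13252 genes tested were called higher and lower. The median log2 difference was 1.53 for the 40 genes and 0.12 for all genes. Against fibroblasts 22 were higher and none lower (0 also at an unadjusted p under 0.05), with 20.0% of 13104 genes called higher and medians of 1.07 and 0.14. Against immune cells 11 were higher and none lower (again 0 at an unadjusted p under 0.05), with 21.1% of 13226 genes called higher and medians of 0.67 and 0.23. In plain direction of levels, 31 genes were higher in epithelial cells in all 3 calves against endothelial cells, 20 against fibroblasts and 4 against immune cells. Against immune cells 4 genes were higher in epithelial cells in calf 2, against 39 in calf 1 and 30 in calf 3. Without the 3 immune cells of calf 2 named above, 30 genes were higher in epithelial cells in that calf. Those cells were chosen for their mitotic UMIs and no epithelial cells were taken out, so a higher count was built in. In calf 1, 12 of the 40 genes had no UMI in the endothelial class, 20 had none in the fibroblast class and 27 had none in the immune class.

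These counts rest on the scaling and on single calves. The composition factors of the fit raised epithelial log2 differences by 0.45 against endothelial, 0.50 against fibroblast and 0.35 against immune cells relative to scaling by total UMIs alone, under which 25 (24 higher), 5 (4 higher) and 7 (5 higher) genes were called. Without the block the counts were 18, 6 and 7, with DESeq2 24, 5 and 1, and without 1 calf 24 to 33, 6 to 11 and 0 to 11, the 0 being the immune comparison without calf 3.

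Among the genes of chromosome structure, only TOP2A and MKI67, the surface coat of mitotic chromosomes and the usual mark of dividing cells, were higher than in endothelial cells. MKI67 had levels of 0.670, 0.153 and 0.388 in the epithelial cells of calves 1, 2 and 3 and of 0, 0.0247 and 0.152 in endothelial cells, so each calf was higher on the epithelial side, with a log2 difference of 2.48 ± 0.37 (SE, edgeR adjusted p = 6.02e-05). TOP2A had 1.52, 0.279 and 0.597 against 0.0592, 0.123 and 0.358, a log2 difference of 1.87 (edgeR adjusted p = 0.000524). TOP2A was also called higher than in fibroblasts (1.06, adjusted p = 0.00024) and immune cells (0.99, edgeR adjusted p = 0.0422), while MKI67 was called against fibroblasts (1.34, adjusted p = 0.00015) but not against immune cells (0.28, edgeR adjusted p = 0.628, and below 0 with total UMIs alone).

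The other 3 genes of this role showed no called difference from endothelial cells. HMGB2 levels were 2.29, 0.861 and 1.28 in epithelial cells, 1.95, 1.27 and 1.38 in endothelial cells and 1.79, 2.82 and 3.51 in immune cells. Epithelial cells were higher than endothelial cells in calf 1 alone, and the fit gave 0.29 (edgeR adjusted p = 0.199), which turned negative with total UMIs alone. SMC4, at 0.752, 0.209 and 0.473 against 0.326, 0.337 and 0.571, and TMPO, at 0.490, 0.210 and 0.526 against 0.414, 0.341 and 0.711, behaved alike, with log2 differences of 0.32 and 0.06 that also turned negative under that scaling. The most abundant of the 40 genes was therefore one that did not separate epithelial cells from the other classes.

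Among kinetochore and centromere genes 6 of 7 were higher than in endothelial cells. CENPF had levels of 1.99, 0.561 and 0.790 in epithelial cells against 0.0296, 0.218 and 0.588 in endothelial cells, a log2 difference of 1.88 (edgeR adjusted p = 0.00188), and it was called against fibroblasts (0.94) and immune cells (1.26) too. SPC24, an outer kinetochore subunit, had 0.843, 0.142 and 0.344 against 0.118, 0.0370 and 0.141, with 2.17 (edgeR adjusted p = 7.92e-06), the smallest adjusted p of the 40 genes in that comparison. NDC80 and NUF2, which build the same microtubule-binding complex as SPC24, CENPA and the motor protein CENPE were called as well, and the log2 differences of the 6 called genes lay between 1.04 and 2.17. HJURP, the chaperone that loads the centromeric histone CENPA, was the gene of this role that was not called.

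The entry kinase CDK1 and its partners CCNB2, CKS1B and CKS2 were all 4 higher than in endothelial cells. CKS2 had 1.17, 0.413 and 0.756 against 0.0888, 0.230 and 0.531 (log2 difference 1.52, edgeR adjusted p = 0.000993). CKS1B was the rarest of the 40 genes, with 335 UMIs in the epithelial class. It had only 2 in the endothelial class, so its difference there (2.37, SE 0.86) is uncertain in size, and none in immune cells. Its epithelial level pooled over calves was 2.44-fold a floor of 3 UMIs over the immune class. This value does not pair the calves and can overstate the fold. The epithelial level was highest in calf 1 (0.0382, against 0.00763 and 0.0132), which gave only 10 of the 799 immune cells. Both CKS genes and HMGB2 have near-identical copies in mammalian genomes, and reads that fit several genes are left out by Cell Ranger, so their levels are less certain than those of the other genes.

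Both checkpoint kinases, BUB1 and TTK, all 3 genes of the chromosomal passenger complex (AURKB, BIRC5 and CDCA8), which corrects faulty attachments, and all 4 genes of degradation and exit (CDC20, UBE2C, PTTG1 and CDCA3) were higher than in endothelial cells, as were 3 of the 4 genes of midzone and cytokinesis, with KIF23 the exception. TTK had no UMI in fibroblasts. Its epithelial level pooled over calves was 3.07-fold a floor of 3 UMIs over the fibroblast class. This value does not pair the calves and can overstate the fold. The epithelial level was highest in calf 1 (0.0974, against 0.0141 and 0.0489), which gave only 22 of the 771 fibroblasts. The summed level of the passenger complex was 1.14, 0.215 and 0.420 in epithelial cells against 0, 0.0864 and 0.310 in endothelial cells, and that of degradation and exit 2.16, 0.593 and 0.884 against 0.207, 0.222 and 0.691. Both sums were higher in epithelial cells in all 3 calves. Of the 11 spindle assembly genes, 8 were higher than in endothelial cells, TPX2 and KIF2C were not called, and GTSE1 was lower. The 8 were the centrosome kinases AURKA and NEK2, KIF11, the motor that pushes the spindle poles apart, and TACC3, NUSAP1, HMMR, DLGAP5 and CKAP2, which bind or bundle spindle microtubules, and their log2 differences ran from 0.69 for CKAP2 to 2.65 for NEK2. That of NEK2 (SE 0.83) rests on only 2 UMIs in the endothelial class, so its size is uncertain. Against fibroblasts all 4 genes of degradation and exit were higher too, and against immune cells CDC20 and PTTG1, the securin, were, as were KIF20B and ECT2 of the 4 genes of midzone and cytokinesis in both comparisons.

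**Figure D3:**
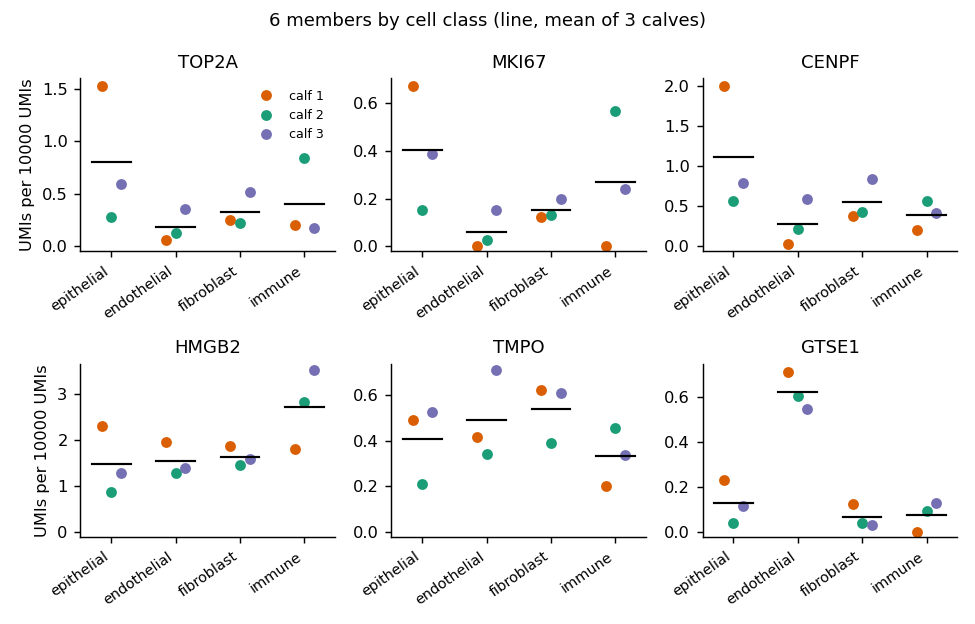
Levels of 6 mitosis genes, in UMIs per 10000 UMIs, in the 4 cell classes of each calf, with bars at the mean of 3 calves. TOP2A, MKI67 and CENPF are highest in epithelial cells of calf 1, HMGB2 is highest in immune cells of calf 3, and GTSE1 is higher in endothelial cells than in any other class in all 3 calves.

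GTSE1, a microtubule-binding protein made in S phase and G2 that also restrains p53, was the only gene of the 40 that ran against the rest, and it was singled out after its values were seen. Its level was 0.710, 0.601 and 0.545 in endothelial cells against 0.229, 0.0370 and 0.113 in epithelial cells, with a log2 difference of -2.27 ± 0.333 (SE, edgeR adjusted p = 5.16e-05) that stayed between -2.72 and -1.57 under all settings tried. Fibroblasts had 0.125, 0.0389 and 0.0299 and immune cells 0, 0.0910 and 0.129, so the endothelial level was the highest of any class in each calf. The immune level was also above the epithelial level in calves 2 and 3, and the fibroblast level slightly so in calf 2. Whether the counts under this gene symbol include reads of another transcript was not tested. A GTSE1 UMI was found in 24.0%, 20.3% and 21.5% of endothelial cells, which are shallower than the epithelial cells, where it was found in 15.9%, 1.98% and 6.68%.

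At an equal depth of 2000 UMIs, a GTSE1 UMI was found in 10.4%, 10.6% and 9.75% of endothelial and in 3.73%, 0.491% and 1.56% of epithelial cells of calves 1, 2 and 3. Of the epithelial cells with a GTSE1 UMI, 127 of 166, 28 of 42 and 78 of 119 also had 3 or more UMIs of the other 39 genes, against 23.3%, 3.45% and 9.04% of those without one. Of the endothelial cells with a GTSE1 UMI, 0 of 7, 1 of 52 and 3 of 59 did, against 1.67%, 3.86% and 6.23% of those without one. In epithelial cells GTSE1 thus lay with the other mitosis genes in all 3 calves, and in endothelial cells it did not, on small counts of cells. The genes on either side of GTSE1 in the RefSeq annotation of ARS-UCD2.0, TTC38 and TRMU, had endothelial levels of 0.123 ± 0.0319 and 0.327 ± 0.0619 (SD, n = 3 calves) and epithelial levels of 0.271 ± 0.0652 and 0.284 ± 0.0183. The level of TTC38 was lower in endothelial cells in all 3 calves. That of TRMU was higher there in calves 2 and 3 (0.325 against 0.263 and 0.390 against 0.294) and lower in calf 1 (0.266 against 0.295). The counts were made on ARS-UCD1.2, and what the neighbours mean for GTSE1 was not tested.

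Within the immune and fibroblast classes the mitotic UMIs were unevenly spread. A T cell-like cluster of 304 cells, 27 of calf 2 and 273 of calf 3, had summed levels of 38.0 and 17.7 in those calves, and 9.94 in the 4 cells of calf 1. The 2 clusters led by C1QC and by DNASE1L3, 411 cells together, had 4.08, 5.44 and 6.44. Among fibroblast clusters the ACTA2-led cells, which are mural or muscle-like, had 11.4, 10.0 and 14.5, against 7.55, 2.33 and 3.51 in LUM-led and 2.49, 2.23 and 2.46 in MFAP5-led cells. The level of the ACTA2-led cells was above that of both other clusters in every calf. The 6 and 4 cells of calf 1 behind the ACTA2-led and T cell-like values are too few for weight. In calf 2 the T cell-like value rested on 3 cells as well, which held 301 of the 322 mitotic UMIs of the 27 cells, and without them the level was 3.26. In calf 3, 103 of the 273 cells had 3 or more mitotic UMIs, and the level was 12.8 without its 3 richest cells.

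Spinous-like and basal-like cells were then compared, with states 5, 6, 10 and 11, where cell-cycle genes lead, in neither class. Cells with 3 or more mitotic UMIs remained in both classes. After thinning they were 9.76%, 1.46% and 4.37% of basal-like cells in calves 1, 2 and 3. State 4 of this class had 18.5%, 2.39% and 8.20%. In spinous-like cells they were 3.90%, 0.978% and 5.88%, against 1.50%, 1.08% and 1.75% in state 1. The part of such cells in the differences between these classes was not tested. The 40 genes separated these classes little. Of 35 genes that passed the filter on low counts, 2 were lower in spinous-like cells and none higher (4 and 0 at an unadjusted p under 0.05), where 11.6% of all 10598 genes tested were called lower, and the median log2 difference was -0.28 against -0.03 for all genes. HMGB2 fell from 0.929, 0.331 and 0.481 in the basal-like cells of calves 1, 2 and 3 to 0.375, 0.134 and 0.297 in spinous-like cells (log2 difference -0.98, edgeR adjusted p = 0.00211), and TMPO from 0.321, 0.172 and 0.383 to 0.155, 0.0629 and 0.265 (-0.85, edgeR adjusted p = 0.0117). Both were lower in all 3 calves. CKS1B, HJURP, TTK, NEK2 and KIF2C did not pass the filter. The count was 1 to 8 without 1 calf and 0 without the block. Among the 25 S-phase genes described next, 11 were lower in spinous-like cells and none higher, with thymidylate synthase (TYMS) among them.

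To rank the genes by their difference between phases of the cell cycle, epithelial cells thinned to 4000 UMIs were sorted with lists of genes outside the 40. Cells with 3 or more UMIs of 25 S-phase genes and fewer than 3 of 20 late mitotic genes formed the S-phase gate, the reverse formed the late-mitotic gate, and cells with 3 or more of each formed the both gate. The S-phase gate held 31.8%, 4.12% and 17.7% of the cells of calves 1, 2 and 3, the both gate 9.85%, 1.06% and 2.40%, the late-mitotic gate 3.66%, 1.65% and 1.92%, and 54.7%, 93.2% and 77.9% were in neither. All 3 gates were largest in calf 1 and smallest in calf 2. State 6 held 76.6% of the both gate and 55.3% of the late-mitotic gate, and state 5 held 41.0% of the S-phase gate, as means of 3 calves.

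The summed level of the 40 genes was 3.72, 1.90 and 2.71 in cells of neither gate, 13.8, 9.77 and 12.9 in the S-phase gate, 80.7, 108 and 87.2 in the both gate and 95.8, 66.6 and 89.3 in the late-mitotic gate. The late-mitotic gate was 6.96-fold, 6.82-fold and 6.94-fold above the S-phase gate, or 6.91 ± 0.0784 (SD, n = 3 calves), while the both gate was 5.86-fold, 11.1-fold and 6.78-fold above it. The late-mitotic fold was 4.85 ± 0.330 for the early and 10.7 ± 0.445 for the late genes, so the late genes changed more in each of the 3 calves. Over roles, the sum of the chromosome structure genes went from 4.15 ± 0.695 in the S-phase gate to 20.2 ± 5.28 in the late-mitotic gate, the kinetochore and centromere genes from 2.04 ± 0.438 to 20.8 ± 3.84, and the degradation and exit genes from 0.974 ± 0.168 to 11.8 ± 0.735. In cells of neither gate HMGB2, TMPO, CENPF, CKS2 and KIF20B held 57.7% of the remaining sum.

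In the test by gene, 39 of the 40 were higher in the late-mitotic than in the S-phase gate, where 8.26% of all 9391 genes tested were called higher, and the median log2 difference was 2.59 against 0.00 for all genes. The exception was CKS1B at 0.56 (edgeR adjusted p = 0.308). The late-mitotic and both gates pick cells by late mitotic RNA, which rises with that of the 40 genes. Higher levels of the set in these gates were therefore close to fixed in advance, and the p-values are no independent evidence of a rise. What can be read is how far single genes differ. Of the genes with the largest differences, CENPF rose from 0.633, 0.402 and 0.445 in calves 1, 2 and 3 to 13.2, 9.60 and 12.4 (4.48, edgeR adjusted p = 3.76e-18), and CENPA from 0.0773, 0.0638 and 0.0844 to 2.11, 1.62 and 1.71 (4.47). CCNB2 rose from 0.0818, 0.0499 and 0.0492 to 1.68, 1.76 and 1.12 (4.43, edgeR adjusted p = 4.51e-17).

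Both genes that drive the exit from metaphase came next. CDC20 rose from 0.117, 0.0666 and 0.102 to 2.38, 1.86 and 2.10 (4.31), and UBE2C from 0.292, 0.30 and 0.297 to 4.15, 4.18 and 5.09 (3.82, adjusted p = 3.76e-18 for CENPA, CDC20 and UBE2C alike by edgeR). For all 5 genes the lowest late-mitotic value was many times the highest S-phase value. Of the abundant genes, TOP2A rose from 0.851, 0.524 and 0.565 to 7.78, 4.35 and 7.93, MKI67 from 0.346, 0.336 and 0.447 to 3.62, 2.25 and 4.47, CKS2 from 0.822, 0.641 and 0.934 to 5.42, 4.17 and 5.85, SMC4 from 0.70, 0.535 and 0.849 to 3.04, 1.80 and 2.89, and HMGB2 from 2.10, 1.57 and 1.91 to 8.35, 5.12 and 6.25.

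**Figure D4:**
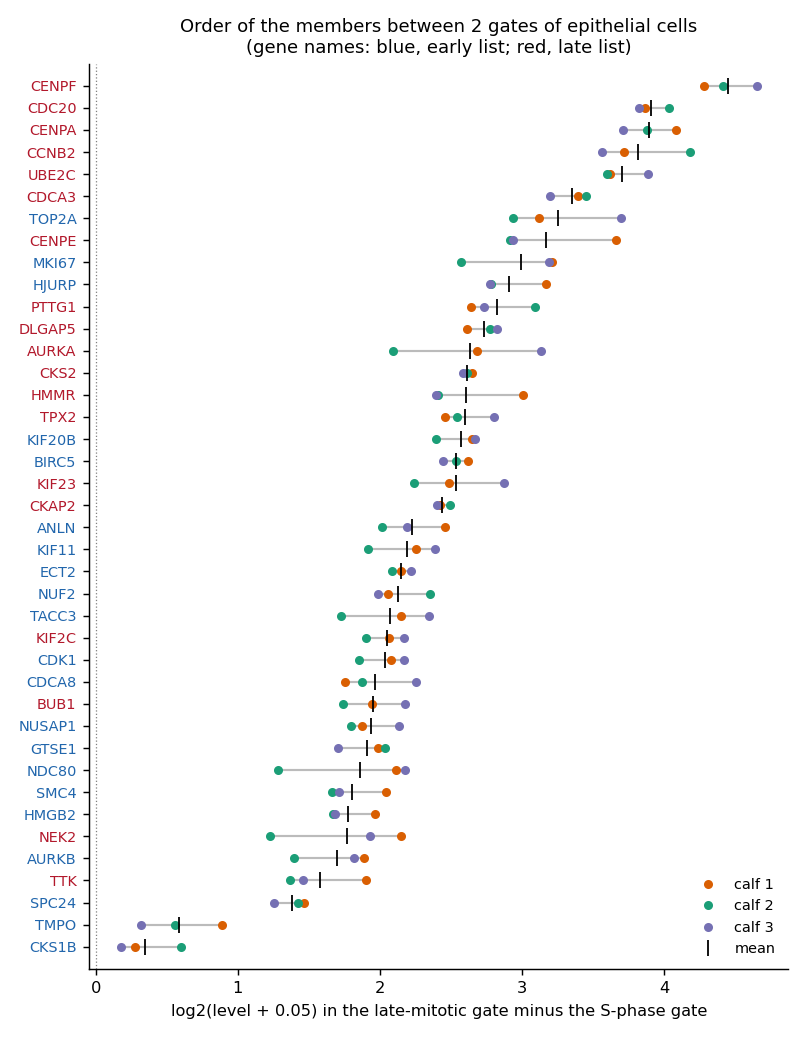
Difference of each mitosis gene between the late-mitotic and the S-phase gate, as log2(level + 0.05), per calf (points) and as the mean of 3 calves (bars), with the names of early genes in blue and of late genes in red. All 40 genes lie above 0 in the 3 calves, from 0.35 for CKS1B to 4.45 for CENPF.

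Ranked by the mean over calves of this difference on the log2(level + 0.05) scale, which understates the change of rare genes, the order began with CKS1B (0.35), TMPO (0.59), SPC24 (1.38), TTK (1.58) and AURKB (1.70) and ended with UBE2C (3.70), CCNB2 (3.82), CENPA (3.89), CDC20 (3.91) and CENPF (4.45). A level kept outside the cycle lowers this difference whatever the timing, so a low rank need not mean an early peak. In cells of neither gate the mean level of TMPO was 0.273, against 0.864 in the late-mitotic gate, and that of HMGB2 0.641 against 6.58. The early genes had a median of 2.03 (0.35 to 3.25) and the late genes of 2.64 (1.58 to 4.45), and 16 of the 20 lowest genes were early while 15 of the 20 highest were late. The early, late and gate lists were all chosen with earlier results of these data known, so this split is a description. The early and late lists overlapped all the same. TOP2A (3.25), MKI67 (2.99) and HJURP (2.91) stood among the late genes, and TTK, NEK2 (1.77) and BUB1 (1.95), kinases of the late list, stood among the early ones. NEK2 is rare, and in the edgeR fit, without this pseudocount, its difference was 3.04, above the late median of 2.97, while TTK and BUB1, at 2.11 and 2.12, stayed below the early median of 2.30. Of the 39 pairs of neighbours in the order, 36 overlapped over the calves, and the 3 that did not were TMPO and SPC24, CDCA3 and UBE2C, and CDC20 and CENPF.

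**Figure D5:**
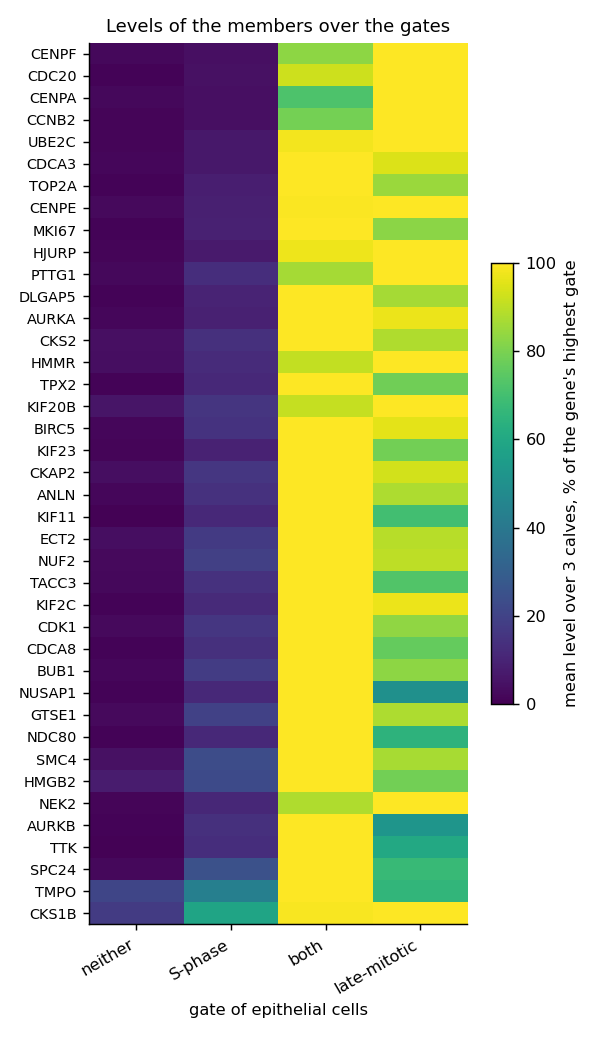
Mean level over 3 calves of each mitosis gene (rows, in the order of the late-mitotic against S-phase difference) in the 4 gates of epithelial cells, in % of the gene's highest gate. Most rows are low outside the both and late-mitotic gates, while TMPO and CKS1B keep part of their level in the S-phase gate.

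The both gate, with 412, 84 and 176 cells, stood close to the late-mitotic gate, with 153, 131 and 141. Against the S-phase gate, 39 of the 40 genes were higher in the both gate (median log2 difference 2.69, with 10.1% of all 10232 genes called higher), CKS1B again being the exception at 0.70 (edgeR adjusted p = 0.0698). Between the late-mitotic and the both gate 2 genes were higher and 5 lower, where 2.84% and 4.63% of all 8529 genes were called. These gates differ only in the cut on S-phase RNA, and all 26 tested rows of the S-phase genes were lower in the late-mitotic gate (median log2 difference -2.34). Lower levels of genes that go with S-phase RNA were therefore close to fixed in advance. The calls and their split by list are a description and no independent evidence of an order. The 2 that were higher in the late-mitotic gate were the centromeric histone CENPA (0.62, edgeR adjusted p = 0.0141) and CCNB2 (0.46, edgeR adjusted p = 0.0207), both of the late list. Neither was called without calf 1 (0.28 and 0.27), with DESeq2 (0.58 and 0.44) or with no replicate block, and CCNB2 was not called without calf 3 (0.44), while 10 genes were called higher without calf 2.

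The 5 that were lower were NUSAP1, which bundles spindle microtubules (-0.89), AURKB (-0.86), TTK (-0.61), SPC24 (-0.51) and TMPO (-0.51). All but TTK are of the early list, a split that the cut on S-phase RNA favours by design. NUSAP1 levels were 2.20, 3.15 and 2.15 in the both gate and 1.43, 1.06 and 1.28 in the late-mitotic gate, and AURKB levels 1.95, 2.12 and 1.72 against 1.34, 0.762 and 0.930, so neither overlapped between gates. CENPA had 0.947, 1.75 and 1.22 against 2.11, 1.62 and 1.71, higher in the late-mitotic gate in calves 1 and 3 only. Calf 2 stood apart here, with 39 of its genes highest in the both gate and 1 in the late-mitotic gate, against 13 and 27 in calf 1 and 22 and 18 in calf 3. Without calf 2 the count of called genes was 15, with DESeq2 it was 2, and without the block none was called.

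Other genes of the cell cycle were followed from lists outside the 40. Of 30 other mitosis genes, 20 were higher in epithelial than endothelial cells, led by separase (ESPL1) and MELK, and 1, ARL6IP1, was lower. The counts were 19 and 0 against fibroblasts, 6 and 1 against immune cells, and 1 (PRC1) and 1 (STMN1) between spinous-like and basal-like cells. Of all genes tested, 26.5% were called higher and 21.8% lower against endothelial cells, 20.0% and 17.4% against fibroblasts and 21.1% and 17.4% against immune cells. Between spinous-like and basal-like cells these shares were 12.5% and 11.6%. The 6 genes higher against immune cells are thus near the share of all genes. In the late-mitotic against the S-phase gate 24 were higher, with the nuclear import receptor KPNA2 at 3.13, PRC1 at 2.69 and the phosphatase CDC25B at 2.67, and 3 were lower, with ZWINT at -0.74, MYBL2 at -0.66 and CENPM at -0.38. Between the late-mitotic and the both gate 14 were lower and none higher, led by the transcription factors FOXM1 (-1.53) and MYBL2 (-1.51). Of all genes, 8.26% and 9.95% were called higher and lower in the first of these gate comparisons, and 4.63% lower in the second. The gates pick cells by S-phase and late mitotic RNA, so changes of genes that go with either were close to fixed in advance.

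Regulators of G1 were read in the same comparisons. Of 15 listed, 14 were tested against endothelial cells, with 1 higher and 4 lower, against fibroblasts, with 3 and 3, and against immune cells, with 4 and 1, and between spinous-like and basal-like cells 2 were higher and 5 lower. The shares over all genes are those given above for the other mitosis genes. With so few regulators, these counts are not read as a trait of the list. Of 13 tested between gates, 2 inhibitors, CDKN2C (1.57) and CDKN1B (0.87), were higher in the late-mitotic than in the S-phase gate, and 7 were lower, with E2F1 at -4.30, the S-phase cyclin CCNE1 at -4.26 and its kinase CDK2 at -1.97. The S-phase gate picks cells by S-phase RNA, and 24 of the 26 rows of its list were lower in the late-mitotic gate. Lower levels of genes that go with that list were thus close to fixed in advance. The lists that define the gates were also read by class. The S-phase genes summed to 6.01 ± 3.81 UMIs per 10000 in epithelial and 2.98 ± 1.03 in endothelial cells (SD, n = 3 calves), with 20 of their 26 rows called higher in epithelial cells, ATAD2 having 2 rows, and 1, DTL, lower. Of 19 late mitotic genes tested, 10 were higher in epithelial than endothelial cells and 1, SGO2, was lower. Beside both lists, 26.5% and 21.8% of all genes were called higher and lower in that comparison.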

How the data were processed

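Rumen cells of 3 newborn calves were measured, with 1 Chromium 3′ library per calf. The authors deposited UMI counts per gene and barcode, made with Cell Ranger 3.1.0 against the ARS-UCD1.2 genome, without normalization and before their quality filters. Barcodes with 500 to 4000 genes, at most 50000 UMIs and at most 40% of UMIs in 13 named mitochondrial genes were kept. In calves 1, 2 and 3, 1797, 1119 and 476 barcodes were under and 797, 187 and 637 over the gene limits. Doublets were removed by a score against simulated doublets in place of DoubletFinder (191, 908 and 879 barcodes).

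Counts were log-normalized, and 2000 variable genes other than the 40 mitosis genes, the S-phase, late mitotic and other mitosis lists were merged over calves with a purpose-written Harmony and clustered on a shared-neighbour graph with Leiden (leidenalg 0.10.2). Resolutions were 0.1 for classes (30 components), 0.8 for epithelial (50) and 0.2 for immune cells (50). Clusters were named from marker lists. A state led by cell-cycle or mitochondrial genes or by markers of another class stayed unnamed, and states 0, 1 and 2, which matched a granule list without its genes leading them, are given by number.

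Counts were summed per calf and class and fitted with edgeR 4.0.16 (quasi-likelihood, TMM, filterByExpr), with Benjamini-Hochberg adjustment over all genes and calls at 0.05. Classes of a calf come from 1 animal, so the calf was a block. Replicates are animals. The fits were tested on simulated data. DESeq2 1.42.0 and the alternatives in the closing section were also run, and the comparisons with the both gate and scaling by total UMIs alone were added after the data were seen. The 40 genes, their early and late lists and the other lists (S-phase, late mitotic, other mitosis genes, G1 regulators) were chosen with earlier results of these data known. Values per calf are given for MKI67, TOP2A, the 5 most abundant genes and the 5 with the largest gate difference, and other genes as their role requires. Intervals are exact Clopper-Pearson.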

Additional observations from a re-analysis of the deposited data

Results flagged for a closer look

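Barcodes with more than 4000 detected genes, which the filters leave out, carried a higher summed level of the 40 mitosis genes than the kept epithelial cells of the same calf. The level was 52.8 UMIs per 10000 in the 797 such barcodes of calf 1, 16.1 in the 187 of calf 2 and 31.8 in the 637 of calf 3, against 19.9, 5.33 and 9.92 in kept epithelial cells, which is 2.65-fold, 3.02-fold and 3.21-fold. At 2000 thinned UMIs 77.8%, 25.7% and 51.2% of these barcodes held 3 or more mitotic UMIs. Their median depth was 26812 to 30779 UMIs, and they lie outside the cells compared above, so none of the comparisons used them. How many of them are single cells was not tested.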

How the results depend on the processing

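The summed level in epithelial cells (11.7) and the share of them with 3 or more mitotic UMIs (13.1%) moved by less than the SD between calves under the other filters, clustering and thinning settings. Without 1 calf they were 7.63 to 14.9 and 6.91% to 17.8%, the low end of both being without calf 1. The counts of called genes were less stable. Against endothelial cells the 33 called genes became 18 with no replicate block and 24 to 33 without 1 calf. Against fibroblasts 22 became 6 with no replicate block, 5 with DESeq2, 5 with total UMIs alone, 35 with the listed cell-cycle genes kept for clustering, and 6 to 11 without 1 calf (11, 9 and 6 without calves 1, 2 and 3). Against immune cells 11 became 7 with no replicate block, 1 with DESeq2, 7 with total UMIs alone, and 0 to 11 without 1 calf (7 without calf 1 and 0 without calf 3). Between spinous-like and basal-like cells 2 became 0 with no replicate block, 4 with no filter beyond 1 UMI, 4 with total UMIs alone, 7 with no doublet removal, 10 with no Harmony, 4 with no upper limit of genes, 6 at resolution 0.4, and 1 to 8 without 1 calf. Between the late-mitotic and both gates 7 became 0 with no replicate block, 2 with DESeq2, 11 with no filter, and 5 to 15 without 1 calf (15 without calf 2). The causes were not tested. Between the late-mitotic and S-phase gates 38 to 40 genes were called under the alternatives run, and between the both and S-phase gates also 38 to 40, where other gates, depths and cell filters were not run. Where edgeR called 0 genes, 1 had an unadjusted p under 0.05 against immune cells without calf 3, 0 between spinous-like and basal-like cells with no replicate block and 6 between the late-mitotic and both gates with no replicate block. With total UMIs alone HMGB2, SMC4 and TMPO turned below 0 against endothelial cells and 7 genes against fibroblasts (CKS1B, HMGB2, HMMR, SMC4, TACC3, TMPO and TPX2) and 14 against immune cells were below 0. TMPO turned to -0.0603 between the late-mitotic and S-phase gates when the gates needed 2 UMIs.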
